A study of Mus musculus with 7 samples.

Results

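The genes described here encode the coats and receptors that carry newly made proteins between the endoplasmic reticulum (ER) and the Golgi apparatus. There are 38 of them among the 52550 genes counted, chosen by name: 13 of the COPII coat, 9 of the COPI coat, 14 cargo receptors, and the SNARE Sec22b with the tether Golgb1. All 38 were found by symbol, each under 1 identifier, and all 38 passed the low-count filter. COPII is the coat that buds vesicles from the ER. The small GTPase Sar1 starts it, Sec23 and Sec24 form the inner layer that binds cargo, and Sec13 and Sec31 form the outer cage. COPI, or coatomer, is the coat that returns escaped ER proteins and receptors from the Golgi and moves material within it. Cargo receptors span the membrane and tie secreted proteins to these coats. Paneth cells, granule-filled secretory cells of the crypt bottom in the small intestine, send large amounts of lysozyme and alpha-defensins through this route.

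All mice carried the Lgr5-EGFP-IRES-CreERT2 allele, a reporter and inducible Cre placed in the stem cell gene Lgr5, in the strain C57BL/6J. For 4 libraries the mice had drunk 3% dextran sulfate sodium (DSS), which injures the gut lining, over 7 days and were killed 3 days after its withdrawal. For the other 3 the mice had drunk water. The water mice were aged 12, 12 and 10 weeks and the DSS mice 12, 10, 10 and 10 weeks, in the order of replicates used below. Polyadenylated RNA was taken from live small-intestinal crypt cells sorted by CD24 and side scatter, without cells bearing TER119, CD31 or CD45. Whether every library stands for its own animal is not said in the labels, and p-values here describe only the spread among these libraries, which may be technical.

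Total counts ran from 23175708 to 32451653 per library, and the members' counts ran from 596 for Copz2 to 12904 for Copa. Levels below are CPM, counts scaled to a common library size by TMM factors. Log2 changes compare DSS with water, and SE is the standard error of the edgeR fit. Some libraries stood apart in markers of cell types. The summed level of 10 Paneth markers was 255300, 273100 and 261900 CPM in water and 217400, 169600, 125200 and 132600 CPM in DSS 1 to 4. The defining marker Lyz1 was at 101500, 108100 and 99780 CPM in water and at 77880, 54420, 39000 and 40790 CPM in DSS. Its log2 change was -0.96 ± 0.27 SE. The summed level of 10 tuft cell markers was 1013 and 1016 CPM in DSS 2 and DSS 3 and between 521 and 597 CPM in the other libraries. Goblet cell markers summed to 10570 CPM in DSS 4 and to between 5775 and 7805 CPM in the others. Enteroendocrine markers summed to 56.2 CPM in water 1, against 1590 and 2779 CPM in water 2 and 3 and between 703 and 1479 CPM in DSS. RNA was isolated on days that each held 1 group only, so isolation day and treatment cannot be told apart.

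Most members were lower after DSS, each by a modest amount. The estimate was below 0 for 34 of the 38, with a median log2 change of -0.22 beside -0.0016 over all 17449 genes tested. By edgeR's quasi-likelihood test with Benjamini-Hochberg adjustment over all genes, 0 of the 38 passed an adjusted p of 0.05, as did 0% of all genes; the lowest adjusted p among the members was 0.124. At an unadjusted p under 0.05, 21 of the 38 (55.3%) were lower in DSS, against 7.35% of all genes, and 0 were higher, against 8.36% of all genes. In 25 of the 38 (65.8%), every DSS library lay below every water library, against 7.52% of all genes. In 0 of the 38 did every DSS library lie above every water library, against 7.4% of all genes.

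These directions rest on the scaling. The members took 0.581%, 0.571% and 0.566% of all counts in the water libraries and 0.557%, 0.571%, 0.565% and 0.588% in the DSS libraries, so their share of the library was alike in both groups. After TMM scaling their summed level was 6350, 6352 and 6139 CPM in water and 5689, 5449, 4938 and 5232 CPM in DSS. The TMM factors were between 0.899 and 0.922 in water and between 0.980 and 1.14 in DSS. With library totals as the only scaling, the median change over all genes shifted to 0.23 and that of the members to 0.01, with 34 of the 38 still below the median of all genes. At an unadjusted p under 0.05, 2 members were then lower, against 1% of all genes, and 5 higher, against 35.7%. The lower values of the members are therefore lower relative to most other genes, not as a share of the library. In RNA from a sorted population, fewer cells of a type and less RNA per cell cannot be told apart. The Paneth marker sum was lower in every DSS library than in every water library, and its part in the members' changes was not tested.

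**Figure D1:**
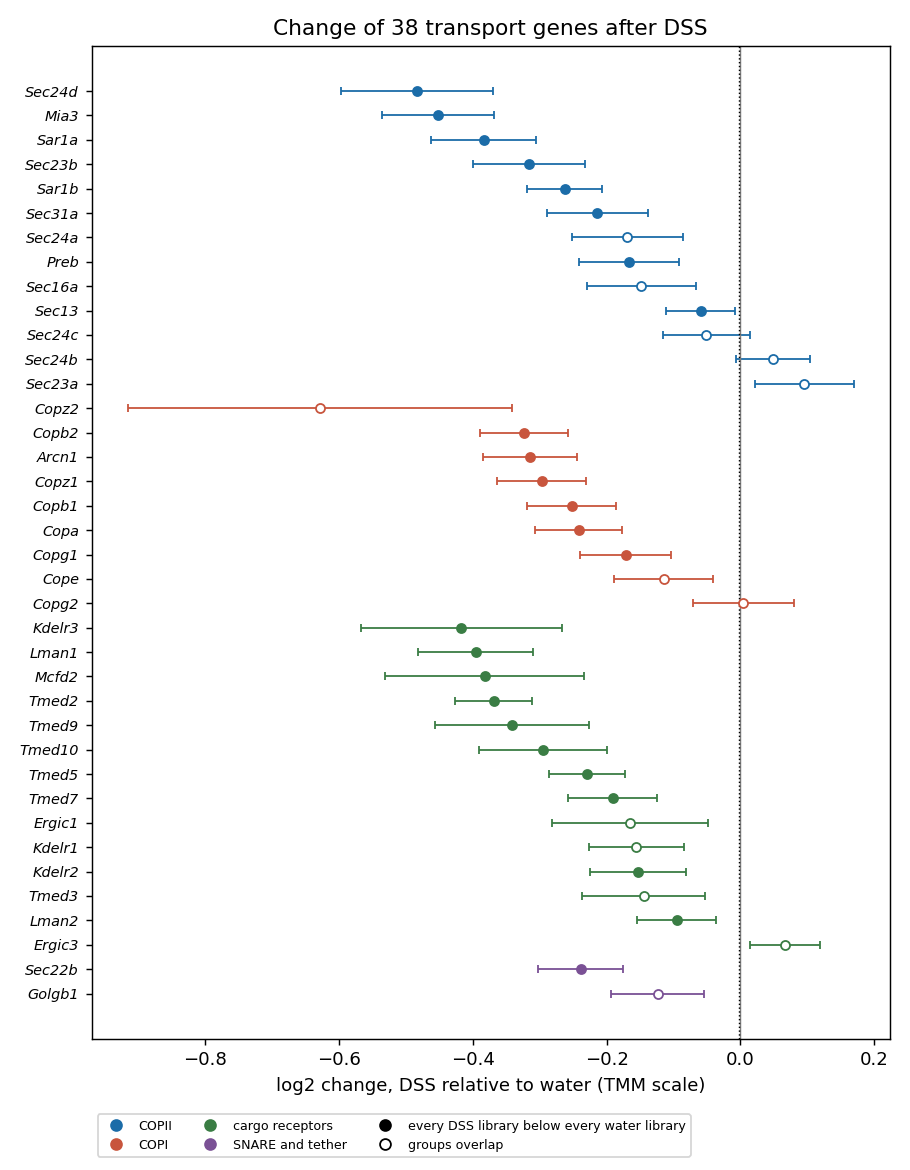
Log2 change (DSS relative to water) with its SE for each of the 38 members, grouped by class, from edgeR on TMM-scaled counts; filled points mark genes with every DSS library below every water library. Of the 38 points, 34 lie left of 0, against 50.3% of all genes. With library totals as the only scaling 18 do, against 15% of all genes.

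The 21 members past an unadjusted p of 0.05 lay in all classes. They were 6 of 13 COPII genes, 6 of 9 COPI genes, 8 of 14 cargo receptors and Sec22b. The median log2 change was -0.17 for COPII, -0.25 for COPI and -0.21 for the cargo receptors. Differences between the classes were not tested, and the medians differ by less than the range within each class, which ran from -0.48 to 0.10 for COPII, from -0.63 to 0.00 for COPI and from -0.42 to 0.07 for the receptors. With library totals alone the 3 medians were 0.06, -0.02 and 0.02, beside 0.23 over all genes.

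The size of the change differed among the DSS libraries. Each library's median deviation of the members from their water mean was 0.02, 0.01 and -0.02 on the log2 scale in water 1 to 3. It was -0.13, -0.21, -0.31 and -0.20 in DSS 1 to 4. DSS 3 was the lowest of all 7 libraries for 23 of the 38 members, and DSS 1 was the highest of the DSS libraries for 22. The Paneth marker sum, in which a few abundant genes weigh most, was highest among the DSS libraries in DSS 1 and lowest in DSS 3. By the median deviation over the 10 Paneth markers, the DSS libraries were at -0.147, -0.355, -0.795 and -0.815 on the log2 scale, with DSS 4 the lowest. Of the cytosolic ribosomal protein genes, 12 were chosen by name and the rest were not read. All 12 had estimates above 0, with median deviations of 0.18, 0.37, 0.50 and 0.39 in DSS 1 to 4. Of 10 genes of the G2 and M phases, 9 had estimates below 0, with a median log2 change of -0.27. The part of these groups in the members' values was not tested. In DSS 1, 30 of the 38 members were below every water library, against 24.7% of all genes. The counts were 29 in DSS 2, against 30% of all genes, 33 in DSS 3, against 32.1%, and 33 in DSS 4, against 28.9%. Without DSS 2 and DSS 3, the libraries with the highest tuft marker sums, the members' median was -0.19. In that fit 35 members were below 0, against 50.5% of all genes. At an unadjusted p under 0.05, 18 were lower, against 3.98% of all genes. Water 1, nearly free of enteroendocrine markers, is itself part of the water mean, so its deviation of 0.02 says little about those markers. The part of tuft and enteroendocrine cells in the members' values was not tested.

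**Figure D2:**
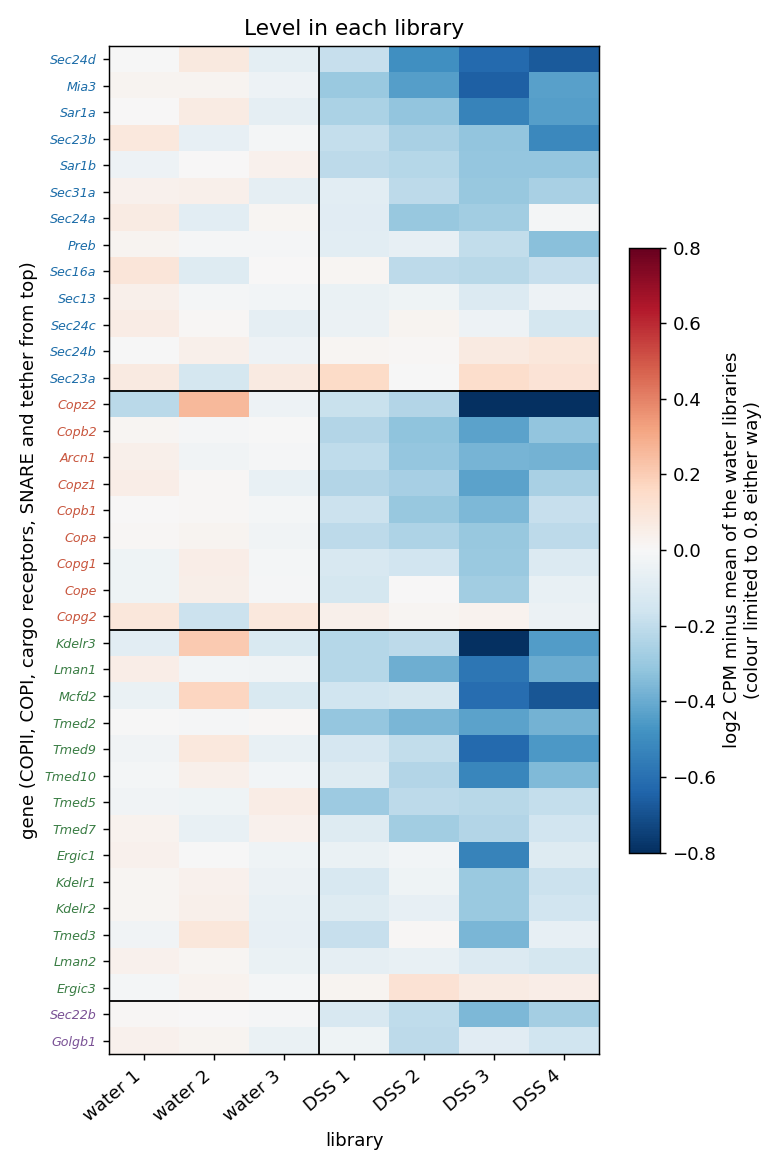
Deviation of each member (row) in each library (column) from its mean over the 3 water libraries, on a log2 scale of TMM CPM. DSS 3 is the lowest library for 23 of the 38 rows, and Sec23a, Sec24b, Ergic3 and Copg2 are the rows with mean changes above 0; colour is limited to 0.8 either way. With library totals as the only scaling, the members' median change is 0.01, beside 0.23 over all genes.

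Genes of ER to Golgi transport are known targets of the unfolded protein response, in which the transcription factors XBP1 and ATF6 bind short elements near gene starts. The RefSeq promoter windows of GRCm38.p6 (the files' build, mm10), from 250 bases before to 50 bases after each start, were available for 32 of the 38 members and searched on both strands. The unfolded protein response element TGACGTGG was in 5 of the 32 (15.6%), against 0.714% of 27025 genes. The XBP1 core GCCACGT was in 12 of the 32 (37.5%), against 2.95% of genes. These motifs overlap: the reverse complement of the core is ACGTGGC, and a TGACGTGG followed by C holds both. The cyclic AMP response element TGACGTCA was in 1 member, Cope (3.12%), against 2.03% of genes. The longer ER stress elements ERSE and ERSE-II were in 0 of the 32, against 0.137% and 0.0444% of genes. The windows of the members had a median GC content of 58.7% and those of all genes 52.7%, and the part of base composition in these shares was not tested. A match is a run of letters and shows no binding.

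The stretches below show the 5 members with TGACGTGG, because they include the genes for 2 inner COPII subunits and 2 coatomer subunits and because Sec23a, among them, did not share the lower level of the others. Each is written 5′ to 3′ along the gene's strand, and the capitals mark the match, in either orientation, extended to 9 letters where the core overlaps it.
Sec24d, chr3:123267460-123267488, plus strand: cccgggcgccTGACGTGGCactagcaacc
Sec23a, chr12:59011993-59012021, minus strand: tcctccccttTGACGTGGCagaggcggca
Kdelr3, chr15:79516367-79516395, plus strand: tggccgccccGCCACGTCAccgcgcggcc
Copb1, chr7:114254690-114254719, minus strand: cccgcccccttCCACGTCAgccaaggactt
Copb2, chr9:98563713-98563742, plus strand: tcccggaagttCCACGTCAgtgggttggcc
The matches in Sec24d and Sec23a have the same 9 letters in the same orientation. With the RefSeq start as position 1, they begin at position -26 in Sec24d and at position 7 in Sec23a. Gene starts differ between annotations: counted from the first base of the gene in the files' annotation, they begin at positions 16 and 7. In that annotation the match lies inside the gene's span in Sec24d, Sec23a, Copb1 and Copb2 and before it in Kdelr3. The log2 changes of these genes were -0.48 and 0.10, so the same letters stood beside unlike changes.

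The next stretches, from 4 members, hold only the core, marked in capitals, and were taken to show matches at varied distances. Over all members, 9 of 13 core matches begin within 40 bases of the RefSeq start, and 3 of the 4 that begin farther away are among these.
Sar1a, chr10:61680116-61680144, plus strand: tgacagacgctGCCACGTcttaccccgct
Mcfd2, chr17:87266121-87266149, minus strand: acccacggtgaGCCACGTtccggagcctc
Sec24c, chr14:20674235-20674263, plus strand: gcctaaggccgACGTGGCagaaggagtgg
Tmed9, chr13:55593120-55593148, plus strand: tccgctgggctACGTGGCtcggcagtctg
Counted from the RefSeq start, the match begins at position -158 in Sar1a, -191 in Mcfd2, -75 in Sec24c and -4 in Tmed9. From the first base of the gene in the files' annotation, these positions are -172, -203, -62 and 19400. In that annotation the Tmed9 match therefore lies far inside the gene's span. The median change was -0.29 over the 14 members with either match, of which 13 were below 0. It was -0.17 over the 18 members with neither, of which 15 were below 0. The difference between these medians was not tested, and 6 members without a window are outside both. Those are Lman1 (log2 change -0.40), Tmed2 (-0.37), Arcn1 (-0.31), Tmed7 (-0.19), Kdelr2 (-0.15) and Golgb1 (-0.12). The transcript of Xbp1 itself was 309, 380 and 331 CPM in water and 287, 233, 231 and 259 CPM in DSS, with every DSS library below every water library (log2 change -0.43 ± 0.10 SE).

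**Figure D3:**
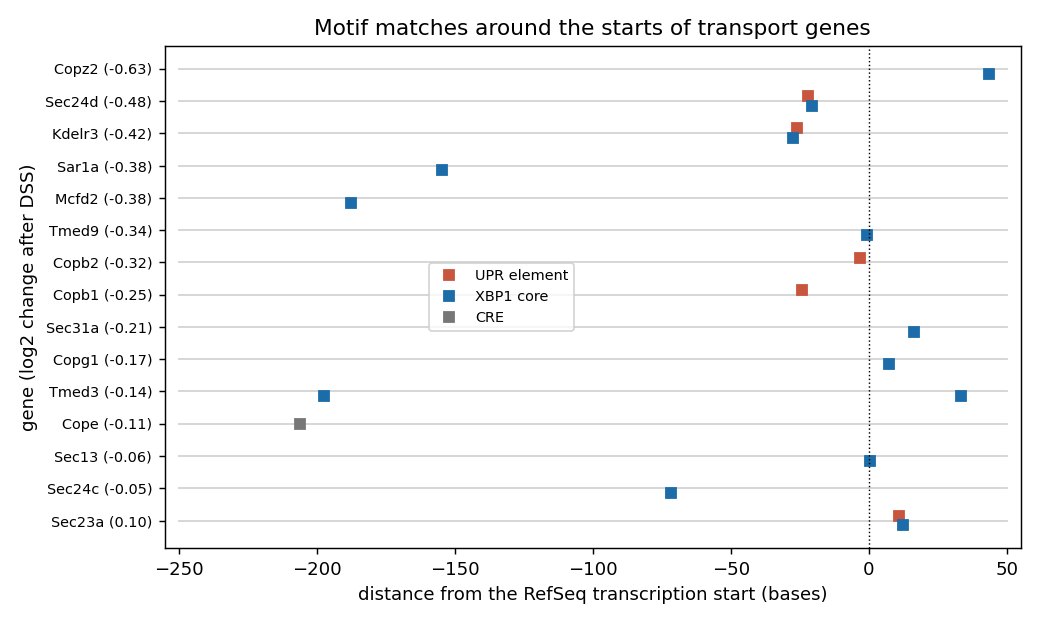
Positions of the centres of motif matches relative to the RefSeq start (0) in the promoter windows of members that hold at least 1 match, with each gene's log2 change given beside it. The 5 matches to TGACGTGG lie within 30 bases of the start, and 9 of 13 core matches begin within 40 bases of it. With library totals as the only scaling the members' median change is 0.01, beside 0.23 over all genes.

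Among COPII genes, the lowest unadjusted p-values belonged to Mia3, Sar1a and Sar1b. Mia3 encodes TANGO1, an ER exit site protein that loads bulky cargo such as procollagen, and lies at chr1:183326725-183369553 on the minus strand. It was at 202, 202 and 194 CPM in water 1 to 3 and at 162, 147, 126 and 147 CPM in DSS 1 to 4. Every DSS library was below every water library, with DSS 3 the lowest. The log2 change was -0.45 ± 0.08 (SE; unadjusted p = 0.00044, edgeR adjusted p = 0.124). Sar1a, the more highly counted of the genes for the Sar1 GTPase, was at 156, 163 and 148 CPM in water and at 130, 125, 107 and 115 CPM in DSS, a log2 change of -0.38 ± 0.08. Sar1b, needed in the gut for export of chylomicrons, was at 51.3, 52.8 and 54.0 CPM in water and at 45.7, 45.0, 42.6 and 42.6 CPM in DSS, a log2 change of -0.26 ± 0.06. Neither Sar1 gene had an overlap between the groups. Preb, the exchange factor that loads Sar1 with GTP, went from 158 ± 1.98 CPM (SD, n = 3) to 141 ± 11.8 CPM (SD, n = 4). Its log2 change was -0.17 ± 0.08, with an unadjusted p of 0.054 by edgeR. Preb shares 1575 exon bases with Abhd1, a gene with a median of 4 counts.

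Sar1b stands head to head with Sec24a on chromosome 11. Sec24a ends its minus-strand span at base 51763634 and Sar1b begins on the plus strand at 51763687. The 52 bases between them hold no annotated exon and are shown because both genes start from them.
Interval between Sec24a and Sar1b, chr11:51763635-51763686, plus strand: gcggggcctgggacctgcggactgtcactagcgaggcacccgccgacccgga
Sec24a, a cargo-binding inner coat subunit, was at 81.4, 73.3 and 78.5 CPM in water and at 72.9, 63.0, 63.9 and 76.8 CPM in DSS. The groups overlapped through DSS 4, unlike those of Sar1b, and the log2 change was -0.17 ± 0.08 (unadjusted p = 0.073 by edgeR).

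The inner coat genes differed among themselves. Sec24d, another cargo-binding subunit, had the lowest estimate in COPII. It was at 183, 193 and 174 CPM in water and at 161, 130, 119 and 115 CPM in DSS, with no overlap and DSS 1 nearest to water. The log2 change was -0.48 ± 0.11 (unadjusted p = 0.0022, edgeR adjusted p = 0.139). Sec24c was at 180, 174 and 165 CPM in water and at 167, 176, 168 and 157 CPM in DSS, so the groups overlapped and the change was -0.05 ± 0.07. Sec24b was at 44.5, 45.8 and 43.2 CPM in water and at 45.0, 44.8, 46.8 and 47.3 CPM in DSS, a change of 0.05 ± 0.05. Sec23b, the GTPase-activating subunit mutated in a congenital anemia, was at 153, 138 and 143 CPM in water and at 127, 121, 116 and 101 CPM in DSS, with no overlap. Its log2 change was -0.32 ± 0.08. Its paralog Sec23a was at 35.5, 30.7 and 35.5 CPM in water and at 37.6, 33.7, 37.3 and 36.4 CPM in DSS, a change of 0.10 ± 0.07. Sec23a and Sec24b were the COPII genes with estimates above 0, and neither passed an unadjusted p of 0.05.

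The outer cage and the scaffold had estimates below 0. Sec31a, the cage subunit, went from 332 ± 13.8 CPM (SD, n = 3) to 286 ± 19.2 CPM (SD, n = 4), a log2 change of -0.21 ± 0.08 with an unadjusted p of 0.020 by edgeR. Its partner Sec13, which also serves in the nuclear pore, went from 66.3 ± 1.55 to 63.6 ± 1.45 CPM, a change of -0.06 ± 0.05. Sec16a, which marks ER exit sites, was at 223, 194 and 208 CPM in water and at 210, 180, 178 and 183 CPM in DSS, with overlap through DSS 1 and a change of -0.15 ± 0.08. Sec13 had no overlap between the groups although its change was near its SE.

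In the COPI coat, 8 of 9 estimates were below 0, and Copb2, Arcn1 and Copz1 had the lowest unadjusted p-values. Copb2, the beta-prime subunit at chr9:98563721-98588382, was at 263, 258 and 260 CPM in water and at 221, 208, 193 and 209 CPM in DSS. The log2 change was -0.32 ± 0.07 (unadjusted p = 0.00084, edgeR adjusted p = 0.138). Arcn1, the delta subunit, was at 358, 342 and 346 CPM in water and at 303, 281, 269 and 268 CPM in DSS, a change of -0.31 ± 0.07. Copz1, a zeta subunit, was at 134, 130 and 124 CPM in water and at 110, 107, 95.6 and 108 CPM in DSS, a change of -0.30 ± 0.07. In none of these 3 genes did the groups overlap. Copb1 and Copa, the beta and alpha subunits, changed by -0.25 ± 0.07 and -0.24 ± 0.07, again without overlap. Copa had the highest count level of the members and went from 450 ± 7.97 CPM (SD, n = 3) to 381 ± 11.7 CPM (SD, n = 4). Cope, the epsilon subunit, changed by -0.11 ± 0.07, with overlapping groups.

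The gamma and zeta subunits each have a pair of genes. Copg1 was at 202, 214 and 204 CPM in water and at 189, 186, 168 and 192 CPM in DSS, a log2 change of -0.17 ± 0.07 without overlap (unadjusted p = 0.032 by edgeR). Copg2 was at 42.4, 35.4 and 42.3 CPM in water and at 41.1, 40.4, 40.7 and 38.5 CPM in DSS, a change of 0.00 ± 0.07. All 4 DSS values of Copg2 lay within the water range; 912 of its exon bases are shared with Mest, which had a median of 4 counts. Copz2 had the lowest estimate and the widest spread of all members. It was at 51.5, 71.6 and 58.1 CPM in water and at 52.9, 50.8, 20.5 and 32.3 CPM in DSS, a change of -0.63 ± 0.29 (unadjusted p = 0.057 by edgeR). DSS 1 lay above water 1, and DSS 3 and DSS 4 lay far below the rest. Leaving out single libraries moved the estimate of Copz2 between -0.80 and -0.41.

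The p24 proteins are cargo receptors that cycle in both coats and carry, among others, lipid-anchored proteins. Tmed2, a core p24 subunit at chr5:124540695-124550506 on the plus strand, had the lowest p-value of all members. It was at 193, 192 and 195 CPM in water and at 156, 150, 144 and 149 CPM in DSS, so the groups were far apart beside their spread. The log2 change was -0.37 ± 0.06 (unadjusted p = 0.00012, edgeR adjusted p = 0.124). Tmed10, its usual partner, went from 190 ± 4.37 to 155 ± 19.1 CPM (SD, n = 3 and 4), a change of -0.30 ± 0.10. Tmed5 was at 46.2, 46.1 and 49.2 CPM in water and at 38.5, 40.8, 40.4 and 41.2 CPM in DSS, a change of -0.23 ± 0.06. It shares 395 exon bases with Mtf2, which had a median of 605 counts. Tmed9 and Tmed7 changed by -0.34 ± 0.12 and -0.19 ± 0.07, and Tmed3 by -0.14 ± 0.09. Of the 6 p24 genes among the members, Tmed3 was the only one whose groups overlapped. Tmed1, Tmed4 and Tmed8, p24 genes outside the members, had overlapping groups. Their changes were 0.15 ± 0.13, -0.05 ± 0.06 and -0.10 ± 0.24. Tmed6, also outside the members, had no overlap and changed by -0.46 ± 0.20.

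The lectin Lman1 (ERGIC-53) and the soluble Mcfd2 form a receptor complex known for the export of clotting factors. Lman1 was at 294, 280 and 278 CPM in water and at 242, 216, 190 and 216 CPM in DSS, without overlap. Its log2 change was -0.40 ± 0.09 (unadjusted p = 0.0013, edgeR adjusted p = 0.138). Mcfd2 was also without overlap. It went from 174 ± 18.9 CPM (SD, n = 3) to 133 ± 26.6 CPM (SD, n = 4), a change of -0.38 ± 0.15. Lman2 (VIP36), a related lectin of the Golgi, changed by -0.10 ± 0.06. Of the ERGIC proteins, which cycle between the ER and the Golgi, Ergic1 changed by -0.16 ± 0.12 and Ergic3 by 0.07 ± 0.05. Ergic3 was the receptor with an estimate above 0. With library totals alone its change was 0.30 and passed edgeR's adjusted p, at 0.0451. In that fit 2084 of 17449 genes passed as higher, and the median change over all genes was 0.23.

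KDEL receptors bind the tail signal of ER chaperones that have reached the Golgi and return them in COPI vesicles. Kdelr1 was at 124, 125 and 118 CPM in water and at 112, 120, 99.3 and 109 CPM in DSS. Its groups overlapped through DSS 2, and the log2 change was -0.16 ± 0.07 (unadjusted p = 0.057 by edgeR). Kdelr2 was at 187, 190 and 177 CPM in water and at 172, 176, 150 and 166 CPM in DSS, without overlap, a change of -0.15 ± 0.07. Kdelr3, whose promoter stretch is shown above, was the least abundant, at 36.3, 44.4 and 35.3 CPM in water and at 32.8, 33.2, 21.5 and 28.3 CPM in DSS. Its log2 change was -0.42 ± 0.15, with water 2 the highest library and DSS 3 the lowest. Mcfd2, Kdelr3 and Copz2 were each highest in water 2.

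Sec22b is a SNARE that fuses vesicles between the ER and the Golgi. It was at 78.1, 77.7 and 77.1 CPM in water and at 70.9, 67.3, 60.6 and 64.4 CPM in DSS. The water libraries lay close together, every DSS library was below them, and the log2 change was -0.24 ± 0.06. Golgb1 encodes giantin, a long tether of the Golgi rim. It was at 341, 339 and 321 CPM in water and at 325, 288, 313 and 299 CPM in DSS, with overlap through DSS 1 and a change of -0.12 ± 0.07.

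Several members are paralogs that fill the same place in a coat, and the log2 ratio of their counts within a library does not depend on the scaling. Of 7 such pairs, compared by two-sided exact permutation over the 35 ways to assign the libraries, with a smallest possible p of 0.0286, none passed Benjamini-Hochberg adjustment over the 7. The ratio of Sec23a to Sec23b was -2.11, -2.16 and -2.01 in water and -1.75, -1.84, -1.64 and -1.47 in DSS. All DSS values lay above all water values, a difference of 0.42 (exact permutation p = 0.0286, adjusted 0.2). Counted per kilobase, Sec23a made up 23.2%, 22.5% and 24.5% of the Sec23 transcripts in water and 27.9%, 26.7%, 29.5% and 32.0% in DSS. The ratio of Sec24c to Sec24d was -0.02, -0.15 and -0.08 in water and 0.05, 0.43, 0.50 and 0.45 in DSS. Here too all DSS values lay above all water values, with DSS 1 close to water, a difference of 0.44 (exact permutation p = 0.0571, adjusted 0.2). In both pairs the ratio was higher in DSS, and the level of the first gene, Sec23a or Sec24c, overlapped between the groups while that of the second did not.

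The other pairs had overlapping groups. The difference in log2 ratio was -0.12 for Sar1a to Sar1b (exact permutation p = 0.143), -0.22 for Sec24a to Sec24b (p = 0.171) and -0.18 for Copg1 to Copg2 (p = 0.114). It was 0.41 for Copz1 to Copz2 (exact permutation p = 0.343), where the DSS ratios ran from 1.05 to 2.22. The ratio of Kdelr1 to Kdelr2 was nearly constant, with a mean of -0.594 ± 0.00944 over the water libraries (SD, n = 3) and -0.597 ± 0.0275 over the DSS libraries (SD, n = 4).

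**Figure D4:**
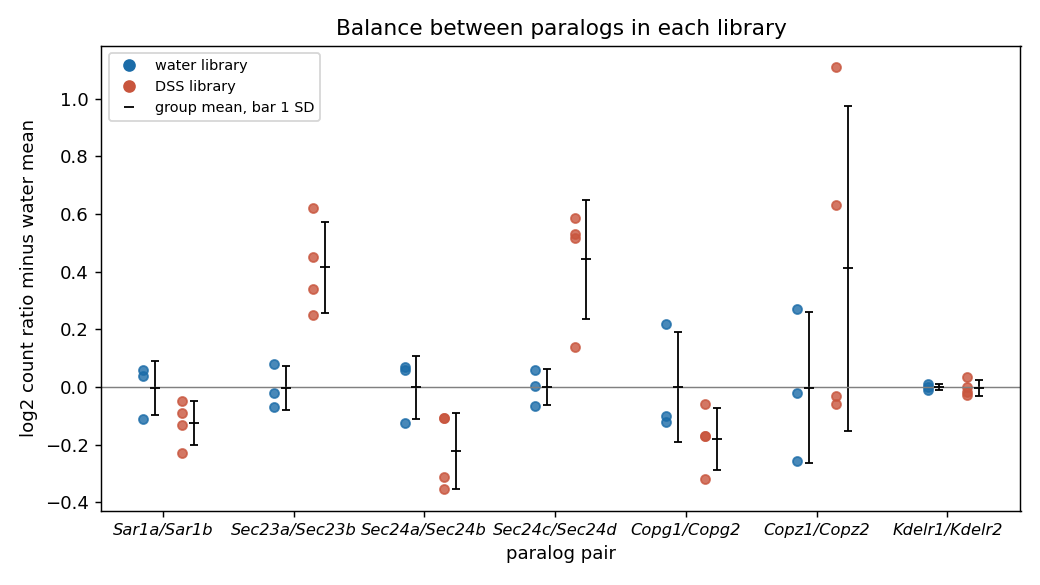
Log2 ratio of counts of the first to the second gene of 7 paralog pairs, minus its water mean, with 1 point per library and the mean and SD of each group beside the points. The 4 DSS points lie above the 3 water points for Sec23a/Sec23b and Sec24c/Sec24d and overlap with them in the other 5 pairs.

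To compare genes with each other, levels were divided by the exon length in the files, giving TMM CPM per kilobase; this length is the union of all annotated isoforms, so genes with long rare exons such as Arcn1 (14915 bases) appear lower. In water, Kdelr2 was the highest at 101 ± 3.61 per kilobase (SD, n = 3), followed by Copz1 at 77.2 ± 3.01 and Tmed2 at 76.5 ± 0.566. Copz1 and Tmed2 did not differ beyond their spread. Of the 37 neighbours in this order, 25 overlapped between libraries. The lowest were Copg2 at 7.82, Sec24b at 7.39, Sec24a at 7.28, Sec23a at 7.01 and Tmed5 at 6.14 per kilobase, and neighbours among these 5 overlapped.

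The median level per kilobase in water was 22.9 for COPII, 33.6 for COPI and 40.0 for the cargo receptors. By this measure, transcripts of coat subunits that meet in 1 complex were not at equal levels: Sec31a was at 42.0 per kilobase and Sec13 at 20.8. Their exon lengths in the files are 7884 and 3184 bases, and the part of these lengths in the difference was not tested. Within the Sec24 family, Sec24d (29.0) and Sec24c (27.5) stood above Sec24b and Sec24a. In DSS, Kdelr2, Copz1 and Tmed2 remained the first 3, at 90.8, 62.9 and 59.3 per kilobase. The greatest change of place was 8 ranks, by Copz2 from 22 to 30, and Ergic3 went from 16 to 9. Of the 4 members with estimates above 0, Sec23a, Sec24b and Copg2 were among the 5 lowest in water and Ergic3 was in the middle of the order. Tmed5 and Sec24a, the other two of the lowest 5, had estimates below 0.

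**Figure D5:**
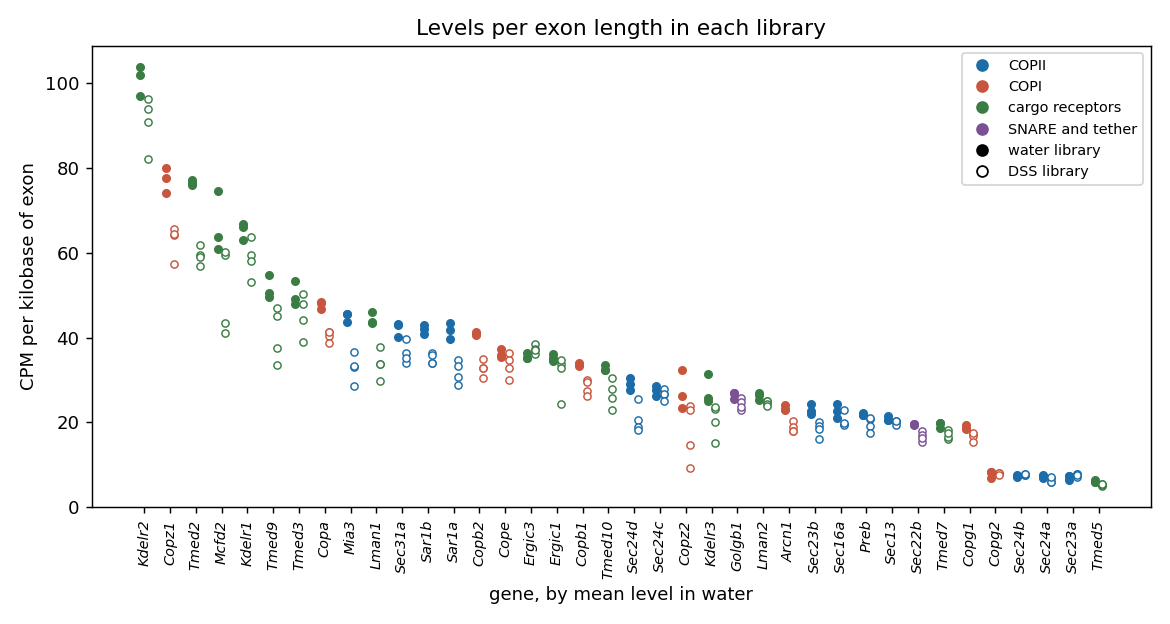
Level per kilobase of exon (TMM CPM per kilobase, linear axis from 0) of each member in the 3 water (filled) and 4 DSS (open) libraries, coloured by class, in the order of the water mean. Levels run from 101 for Kdelr2 to 6.14 for Tmed5 in water, and Copz2 moves 8 places between the groups.

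Genes that work beside the members were read from lists of their families. Over all genes, 7.35% were lower and 8.36% higher in DSS at an unadjusted edgeR p under 0.05, the threshold for the counts below. Of 20 tested other coat and cargo receptor paralogs, 7 (35%) were lower and 0 higher, with a median log2 change of -0.15. Mia2 (cTAGE5), the partner of Mia3 at exit sites, changed by -0.22 ± 0.06 and Ergic2 by -0.23 ± 0.06. Of 11 genes of the Arf switch, the GTPase that recruits coatomer, 5 (45.5%) were lower and 0 higher, with a median of -0.17. Arf4 changed by -0.33 ± 0.07 and Arfgap1, which ends the Arf signal, by -0.23 ± 0.08. Of 14 SNAREs and their regulators, 6 (42.9%) were lower and 1 higher, with a median of -0.16. Bet1, a SNARE of COPII vesicles, changed by -0.55 ± 0.10 and Scfd1, a SNARE regulator, by -0.36 ± 0.08. Of 30 tethers and golgins, 9 (30%) were lower and 0 higher, with a median of -0.07. Uso1 (p115), which tethers COPII vesicles, changed by -0.41 ± 0.08 and Nbas by -0.45 ± 0.10. With library totals alone, these 4 medians were 0.09, 0.06, 0.08 and 0.16, beside 0.23 over all genes. In the order named, every DSS library lay below every water library in 25%, 45.5%, 42.9% and 33.3% of these 4 lists. The share was 65.8% for the members and 7.52% for all genes.

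Clathrin and its AP-1 adaptor, which form the coat at the far side of the Golgi, were read in the same way. Of 14 genes, 0 were lower at an unadjusted p under 0.05, against 7.35% of all genes. At that threshold 1 was higher, against 8.36% of all genes, and the median log2 change was 0.02 (0.26 with library totals alone). The gene that was higher was Ap1s1, an AP-1 subunit, at 0.14 ± 0.06, and Gga2, an adaptor, changed by -0.14 ± 0.07. The difference between this list and the members was not tested. Of 11 regulators of secretory capacity, 5 (45.5%) were lower and 0 higher, with a median of -0.17 (0.06 with library totals alone). Besides Xbp1, Hspa5, the main ER chaperone, changed by -0.32 ± 0.08 and Creb3l2, a membrane-bound transcription factor of the secretory route, by -0.47 ± 0.14. Creb3l1, its relative, changed by 0.01 ± 0.11. As with the members, 0 of the genes in these lists passed edgeR's adjusted p.

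Other tests of the same contrast called some members. DESeq2 called 14 members lower at its adjusted p of 0.05, against 2.23% of the genes it tested: Sar1a, Sar1b, Sec23b, Sec24d and Mia3 of COPII, Copa, Copb1, Copb2, Copz1 and Arcn1 of COPI, Tmed2, Tmed5 and Lman1 of the receptors, and Sec22b. With no low-count filter, edgeR called Sar1a, Sec24d, Mia3, Tmed2 and Lman1 lower, against 0.573% of genes. Without DSS 1, the library nearest to water, edgeR called 7 members lower: these 5 with Copb2 and Arcn1, against 0.779% of genes. Limma-voom with quality weights called 0 members, with 24 lower at an unadjusted p under 0.05, against 8.4% of genes. In 10-week mice only, 10 members were lower at an unadjusted p under 0.05 by edgeR, against 4.7% of genes.

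The counting did not use strand, so reads shared with overlapping genes cannot be told apart, and 11 members share exon bases with another gene. For Tmed7 the partner, Ticam2, lies on the same strand, so strand would not separate them. For 9 of the 11 the partner had a median of 67 counts or fewer. Such counts do not show how many of a member's reads were lost or gained in the shared bases. The exceptions were Tmed5, described above, and Kdelr3, of which 33 exon bases are shared with Ddx17, a gene with a median of 11199 counts.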

How the data were processed

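The authors deposited raw counts per gene for 7 libraries. Per the file headers they were made with featureCounts 1.5.3, counting exons by gene from primary alignments with an overlap fraction of 0.8, GENCODE release 15 and no strand option. Per the submitters' processing notes, the build was mm10 and the tools were STAR 2.5.3a, DESeq2 and featureCounts 1.5.2. Symbols came from GENCODE release 21 and matched 52403 of 52550 identifiers. At these depths 3 counts correspond to between 0.0924 and 0.129 CPM.

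The members and gene lists were chosen with earlier results of these data known. With edgeR 4.0.16 in R 4.3.3, filterByExpr kept 17449 genes, TMM factors were applied, and DSS (4 libraries) was tested against water (3 libraries) by quasi-likelihood with no covariate and with Benjamini-Hochberg adjustment over all genes. DESeq2 1.42.0, limma 3.58.1 and the other settings in the closing section were alternatives. Every member is accounted for. Values in every library are given for the 3 members with the lowest p in each class, for Sec22b and Golgb1 and for all paralog pairs, and for Kdelr3 and Sec16a besides, which were chosen after their values were seen. From each list beside the members the 2 genes with the lowest p are named, and Xbp1, Hspa5, Creb3l1 and Creb3l2 in any case. Tmed1, Tmed4, Tmed6 and Tmed8 were added later as further p24 genes. The scripts were tested on simulated data.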

Additional observations from a re-analysis of the deposited data

Results flagged for a closer look

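In groups of 4 libraries, the gap of the highest or lowest value to its neighbour was compared with the group's range for 48 series, the members' levels and their ratios among them, against Dixon's critical value for 4 values. It was above that value in 3 of the 48, and chance gives about 5%. Sec16a was at 210 CPM in DSS 1, apart from the other DSS libraries with a gap ratio of 0.857. Copz1 was at 95.6 CPM in DSS 3, below the other DSS libraries with a gap ratio of 0.831. The log2 ratio of Sec24c to Sec24d was 0.05 in DSS 1, below that of the other DSS libraries with a gap ratio of 0.848.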

How the results depend on the processing

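With library totals as the only scaling, 2084 genes were higher and 28 lower at edgeR's adjusted p of 0.05, and 2 members were lower and 5 higher at an unadjusted p under 0.05. The medians were then 0.064 for COPII, -0.0193 for COPI, 0.0249 for the cargo receptors, 0.0872 for other paralogs, 0.0622 for Arf genes, 0.0781 for SNAREs, 0.164 for tethers, 0.256 for clathrin genes and 0.0552 for the regulators; the median of all genes moves with them. DESeq2 called 347 genes higher and 297 lower, with 14 members lower. With no filter these were 240, 201 and 5. With the libraries whose names carry the number 6 only (3 water and DSS 4, which is assumed to vary like the water libraries), 3 genes were higher and 6 lower, and the medians were -0.269 for COPII, -0.0831 for other paralogs, -0.162 for tethers and -0.332 for the regulators. The difference in the Sec23a to Sec23b ratio was then 0.622. Limma-voom gave a median of -0.306 for the regulators. In 10-week mice only, 10 members were lower at an unadjusted p under 0.05; water 3 stands alone there. The cause of these shifts was not tested.

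Leaving out 1 library at a time gave 0 to 168 genes higher and 0 to 135 lower. The highest of both came without DSS 1, and 9 were higher without DSS 4. Members lower at the adjusted p ran from 0 to 7. At an unadjusted p under 0.05 they ran from 16, without water 2, to 25, without DSS 2. Over all genes, 957 of 17881 were lower without water 2 and 1270 of 17210 without DSS 2. The regulators' median ran from -0.287, without DSS 3, to -0.155. The rank in water ran from 2 to 3 for Copz1 and for Tmed2, which changed places without water 1. Size factors of DESeq2 type, scaling without Paneth markers, a filter of 1 CPM in 4 libraries and age as a covariate moved none of these results beyond the limits used. Leaving out DSS 2 with DSS 3, chosen after seeing the data, gave 18 members lower at an unadjusted p under 0.05, against 3.98% of all genes. No paired analysis was possible because the replicate numbers follow the order of deposit and pair nothing.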
